A study of Mus musculus with 2 samples.

Results

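CD8+ tumor-infiltrating lymphocytes (TIL) that expressed DNA replication genes, but few mitosis genes, were examined in B16 melanoma tumors of lean and obese mice. The cells were chosen by the values of 14 genes in each cell, counted as unique molecular identifiers (UMIs), each marking one captured RNA molecule. A chosen cell held at least 8 UMIs over *Mcm3*, *Mcm5*, *Pcna*, *Tyms* and *Rrm2*, under 5 UMIs over *Top2a*, *Mki67* and *Birc5*, and under 3 UMIs over the granzyme genes *Gzmc*, *Gzmd*, *Gzme*, *Gzmf*, *Gzmg* and *Gzmn*. These S-gate cells numbered 213 of the 4745 cells within the filters, and were 93 of 2456 cells from lean mice and 120 of 2289 cells from obese mice. The mice were C57BL/6 males of 16 weeks, kept for 12 weeks on normal chow (NC, lean) or on western diet (WD, obese). All carried transplanted B16 F0 tumors, a mouse melanoma line, and CD8+ TIL were taken on day 14 by magnetic enrichment and a flow cytometry sort. Droplet libraries that read the 3' end of each RNA were made from them, 1 per diet, and the number of mice behind each library is not stated in the sources used here. A single library per diet gives no replicates and allows no test of diet. Each interval below is a 95% interval that covers counting error alone.

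Before a cell copies its DNA, it loads a ring of Mcm proteins, the replicative helicase, onto replication origins during G1. In S phase the helicase is activated, polymerases run along the DNA behind the sliding clamp Pcna, nucleotides are supplied by enzymes such as Tyms and ribonucleotide reductase, and new histones package the copy. E2F transcription factors switch on many of these genes at the boundary of G1 and S, while genes for mitosis come on later. CD8+ T cells that meet antigen in a tumor divide and can acquire granzymes, perforin and cytokines.

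S-gate cells made up 3.79% (3.07 to 4.62, exact Clopper-Pearson interval) of the filtered cells on NC and 5.24% (4.37 to 6.24) on WD. The log2 ratio of the shares, WD over NC, was 0.47 (0.07 to 0.88, exact conditional binomial interval). The excess on WD depended on the limit set on the granzyme genes: without that limit the log2 ratio was 0.046. Cells with 3 or more UMIs of those genes, whatever their replication sum, numbered 279 on NC and 79 on WD. S-gate cells were deep, with a median of 17790 UMIs and 3555 genes per cell on NC and 19909 UMIs and 3788 genes on WD, against 6844.5 and 7494 UMIs in cells below both limits. A gate set at a fixed number of UMIs favors deep cells, so the share was also taken after each cell was thinned to 5000 UMIs and the limits were lowered to at least 4 replication, under 3 mitosis and under 2 granzyme UMIs. It was then 5.39% (4.41 to 6.50) on NC and 7.77% (6.60 to 9.07) on WD, over 1893 and 1879 cells, with 563 and 410 shallower cells left out. The thinned gate held 46 of the 92 S-gate cells deep enough on NC and 61 of 119 on WD.

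**Figure D1:**
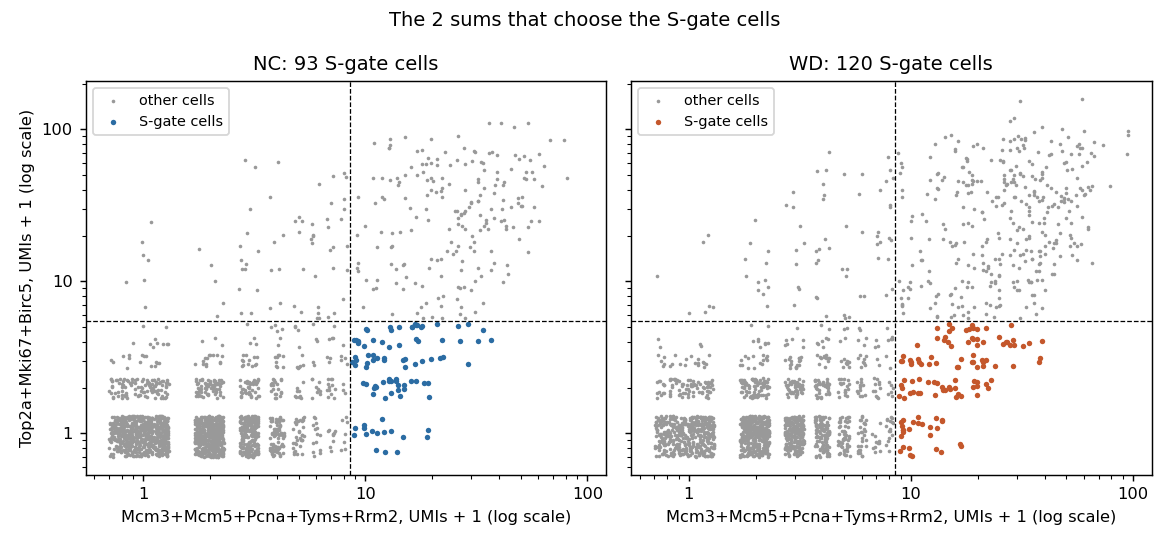
Each point is a cell with under 3 UMIs of the granzyme genes, with the replication sum on the x axis and the mitosis sum on the y axis (UMIs plus 1, log scales, points spread slightly to show overlap). Colored points are the 93 NC and 120 WD S-gate cells, and dashed lines are the limits of 8 and 5 UMIs, across which the cloud of points runs without a gap.

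Other groups serve for comparison, all with under 3 UMIs of the granzyme genes. Low-gate cells were below both limits (1810 on NC, 1661 on WD), double-gate cells passed 8 replication UMIs and also held 5 or more mitosis UMIs (205 and 355), and mitosis-gate cells held the mitosis UMIs alone (69 and 74). Of the cells that passed 8 replication UMIs within the granzyme limit, S-gate cells were 31.2% (26.0 to 36.8) on NC and 25.3% (21.4 to 29.4) on WD. The limits cut through a continuum. A replication sum of 7 was held by 15 NC and 29 WD cells just outside the gate, and a sum of 8 by 11 and 17 cells just inside it. A mitosis sum of 4 was held by 16 and 11 cells inside, and a sum of 5 by 8 and 12 cells outside. Only 4 cell barcodes occurred in both libraries, none of them in an S-gate cell.

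RNA of T cell receptor and CD8 genes was seen in every S-gate cell, but no background share is given for these genes. Each had at least 10 UMIs over *Cd3d*, *Cd3e*, *Cd3g* and *Trac*, which form the T cell receptor complex, and at least 5 (NC) or 2 (WD) UMIs of the co-receptor genes *Cd8a* and *Cd8b1*. *Cd8a* stood at 640.5 CPM, UMIs per 1000000 UMIs of the summed cells, on NC and at 549 CPM on WD. Markers of other cells were looked for as lists. The 5 melanoma genes gave 1 and 2 UMIs in all, with *Pmel* and *Tyr* at 0, the 4 B cell genes 4 and 7, with *Cd79a* and *Ms4a1* at 0, and the 4 red cell genes 0 and 3. The 6 myeloid genes gave 28 and 32 UMIs, of which *Cd68* gave 13 and 21, with *Csf1r* and *Adgre1* at 0, and 1 NC cell held 16. The 5 dendritic genes gave 181 and 352 UMIs, most of them *Cd74*. They were seen in 29 of 93 NC and 42 of 120 WD cells, 8 and 12 of which held 5 or more, and 1 cell per library held 85 of the NC and 194 of the WD UMIs. The same cells held 70 of 127 NC and 40 of 79 WD UMIs of the 5 NK and gamma-delta T cell genes, and 28 and 51 UMIs of *Cd8a* and *Cd8b1*. *Cd4* and *Foxp3* gave 10 UMIs on NC, 9 of them in 1 cell, and 3 on WD. Doublets were not removed, so cells with 5 or more UMIs of *Siglech*, *Tyrobp*, *Foxp3* and *Cd4* together were left out as an alternative chosen after seeing the data. Of 38 genes and 15 other results compared, only *Ccl1* then lay outside its counting interval, with a log2 ratio of WD over NC of 2.09 in place of 1.51.

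The 5 replication genes that chose the cells did not contribute equally. *Pcna*, on mouse chromosome 2 (132249162 to 132253314 in GRCm38), gave 40.9% of the replication UMIs of S-gate cells on NC and 43.5% on WD. *Mcm3*, a helicase subunit on chromosome 1 (20802968 to 20820312), gave 28.9% and 28.0%, and *Mcm5*, another subunit on chromosome 8 (75109569 to 75128439), 16.1% and 15.9%. The genes of nucleotide synthesis gave little. *Tyms*, for thymidylate synthase on chromosome 5 (30058202 to 30073617), gave 10.3% and 9.38%, and *Rrm2*, the cell cycle-regulated subunit of ribonucleotide reductase on chromosome 12 (24708241 to 24714146), 3.84% and 3.29%. In double-gate cells *Rrm2* made up 17.4% and 16.5% of the same sum. *Rrm2* was seen in 29 of 93 NC and 30 of 120 WD S-gate cells, but in 175 of 205 and 308 of 355 double-gate cells. These shares describe the sum that chose the cells and nothing more. *Pcna* was also its most abundant gene in low-gate cells, with 1323 of 2072 UMIs on NC and 1678 of 2546 on WD.

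Helicase genes that the rule did not name stood several times above low-gate cells. *Mcm2* and *Mcm6* stood near double-gate cells, except that *Mcm2* was above them on NC. *Mcm2* was at 69.1 CPM on NC and 58.9 on WD in S-gate cells, at 51.7 and 57.3 in double-gate cells, and at 13.3 and 15.2 in low-gate cells. *Mcm6* was at 199 and 179 CPM against 201 and 201 in double-gate cells and 52.8 and 51.2 in low-gate cells. *Mcm7* was at 213 and 246 CPM, between its low-gate levels of 33.5 and 37.6 CPM and its double-gate levels of 262 and 299 CPM. The 11 helicase loading genes summed to 890 CPM (848 to 934, exact Poisson interval) on NC and 901 CPM (863 to 939) on WD. This was below the 1109 and 1167 CPM of double-gate cells and well above the 218 and 237 CPM of low-gate cells. All 6 helicase loading genes with enough UMIs (20 in each gate and library compared, and 50 CPM in at least 1) were at least 1 log2 unit above low-gate cells in both libraries. Over the 4 replication lists 20 of 27 such genes were, of 65 listed. Across all 2805 genes 3.03% were, and since the rule used this contrast the count describes the cells and nothing more.

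*Ung* and *Cdca7* were above their double-gate levels as single genes. The 15 repair and checkpoint genes, *Ung* among them, summed to 0.585 (NC) and 0.557 (WD) times the double-gate level. Of 5 G1/S control genes compared, 2 were above their double-gate level and 2 below it in both libraries. *Ung*, for the uracil glycosylase that removes uracil from new DNA, was at 47.9 CPM on NC and 48.6 on WD in S-gate cells, 26.1 and 35.2 in double-gate cells, and 7.66 and 6.75 in low-gate cells. *Cdca7*, a chromatin factor, was at 75.6 and 59.3 CPM, against 41.0 and 54.0 CPM in double-gate cells. *Gins2*, part of the active helicase, was at 45.7 and 44.9 CPM against 47.3 and 61.2, and *E2f1*, itself an activator of these genes, at 32.6 and 26.0 CPM against 35.6 and 32.6, so both were at or below their double-gate levels. On WD *Cdca7* was only 1.10 times its double-gate level. After thinning *Ung* was seen in 23.9% (15.6 to 33.9) of NC and 17.6% (11.3 to 25.7) of WD S-gate cells. The double-gate shares were 8.82% (5.31 to 13.6) and 13.0% (9.67 to 16.9), so the intervals overlapped on WD.

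All 4 replication lists summed to less than in double-gate cells. S-gate cells had 0.803 (NC) and 0.772 (WD) times the double-gate sum for helicase loading, 0.766 and 0.725 times for the 20 nucleotide genes, 0.664 and 0.658 times for the 21 polymerase and clamp genes, and 0.609 and 0.633 times for the 13 genes of helicase activation. Single genes differed more. *Lig1*, the ligase that seals new DNA strands, was at 136 CPM on NC and 170 on WD, against 222 and 245 in double-gate cells. Of the rule's own genes, *Tyms* was at 71.3 and 70.4 CPM against 234 and 203, and *Rrm2* at 26.7 and 24.7 against 194 and 187. *Tk1*, for thymidine kinase, was at 28.8 and 30.9 CPM against 87.7 and 86.7. *Dut*, which keeps uracil out of DNA, was closer, at 569 and 522 CPM against 759.8 and 760.3. Genes of G2 and mitosis outside the rule were low. The 26 of them summed to 339 and 304 CPM, against 2964 and 2634 CPM in double-gate and 194 and 204 CPM in low-gate cells. *Cdk1*, the mitotic kinase, was at 27.2 and 24.7 CPM against 180 and 150 in double-gate cells. *Ccna2*, the cyclin of S phase and G2, gave only 3 and 13 UMIs in S-gate cells, and was at 126 and 110 CPM in double-gate cells.

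**Figure D2:**
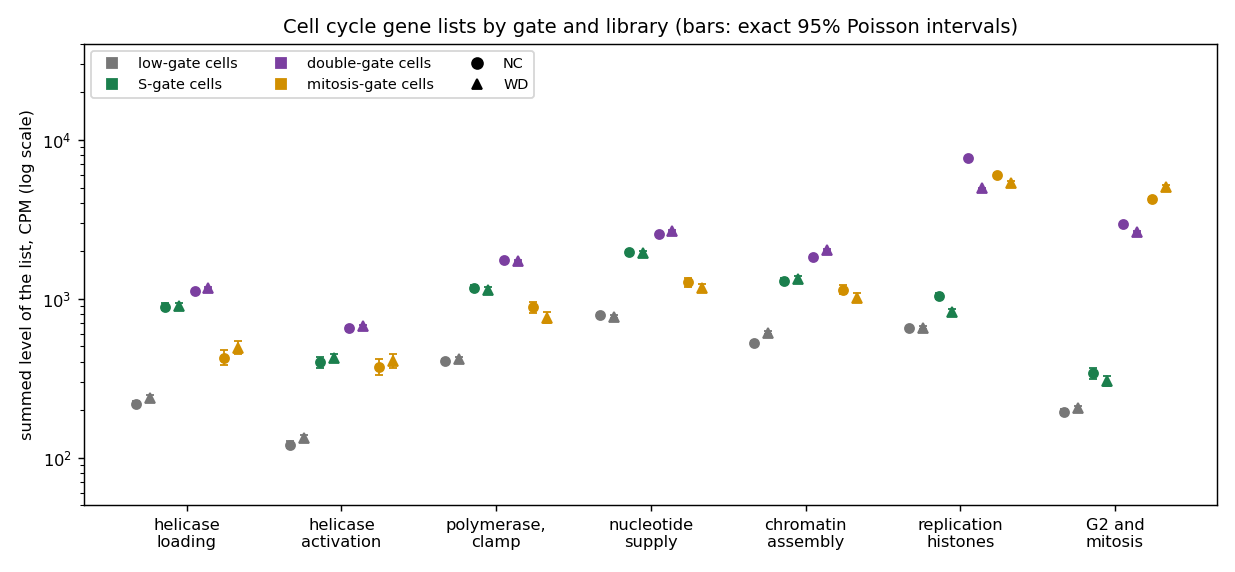
Summed level of 7 cell cycle gene lists (y axis, CPM, log scale) in low-gate, S-gate, double-gate and mitosis-gate cells, with circles for NC, triangles for WD and bars for exact 95% Poisson intervals. For helicase loading S-gate cells had 890 and 901 CPM against 1109 and 1167 CPM in double-gate cells, whereas for replication histones they had 1045 and 826 CPM against 7623 and 4953 CPM.

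Replication-dependent histone genes, whose RNA accumulates while DNA is copied, went against the name of S-phase cells. Most of these RNAs end without a poly(A) tail, so a library of this kind captures only part of them, and the gene copies are so alike that single copies are uncertain, so the 67 genes were summed. The sum was 1045 CPM (999 to 1093) on NC and 826 CPM (790 to 863) on WD in S-gate cells. Low-gate cells had 652 and 655 CPM, double-gate cells 7623 and 4953 CPM, and mitosis-gate cells 6018 and 5374 CPM. S-gate cells thus had 1.60 times the low-gate level on NC and 1.26 times on WD, and 0.137 and 0.167 times the double-gate level. Cell by cell, 25 of 93 NC and 46 of 120 WD S-gate cells were at or below the median low-gate cell, and 1 and 2 were at or above the median double-gate cell. One NC cell, with a mitosis sum of 4, gave 367 UMIs or 19.1% of the NC sum, and without the highest cell of each library the sums were 854 and 800 CPM. The limit on *Top2a*, *Mki67* and *Birc5* is part of the rule, and cells later in the cycle carry those genes. The S-gate cells are therefore described here by their rule. Over all 2729 genes compared, 2.71% were at least 1 log2 unit lower than in double-gate cells in both libraries, and 15 of the 17 histone genes with enough UMIs were. The rule's mitosis limit separates these gates, so these counts are a description.

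**Figure D3:**
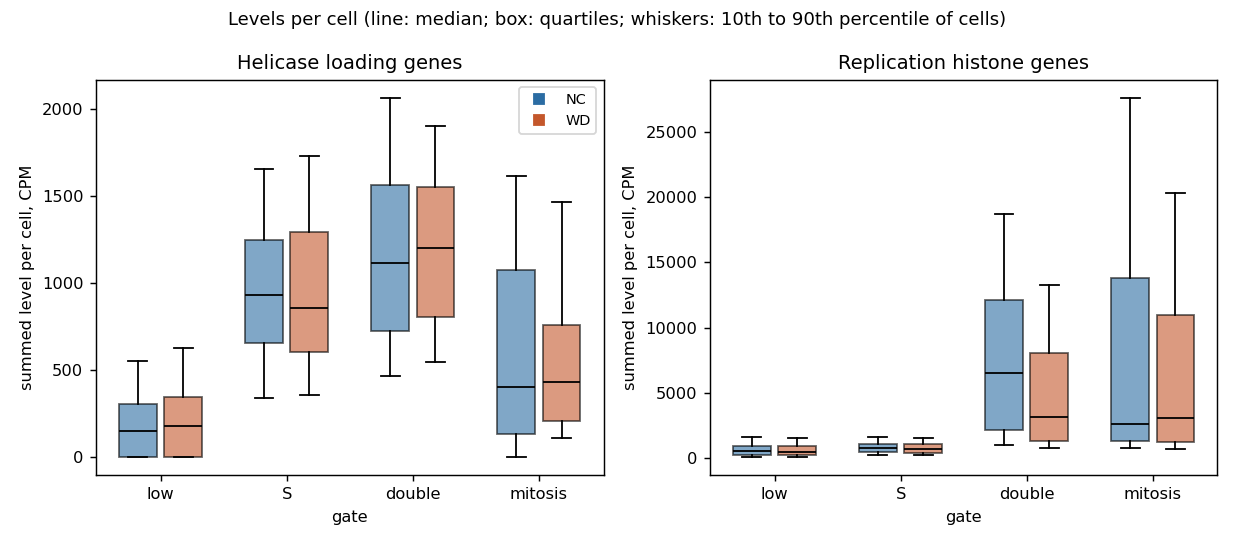
Summed level per cell (CPM) of the helicase loading genes (left) and the replication histone genes (right) by gate, with NC in blue and WD in orange, the line at the median, the box at the quartiles and whiskers from the 10th to the 90th percentile of cells. The median S-gate cell had 934 (NC) and 855 (WD) CPM of helicase loading genes, against 1116 and 1205 CPM in double-gate cells, and 822 and 689 CPM of histones against 6502 and 3204 CPM.

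The cells within the gate were also divided by their mitosis sum, a value that the rule uses, so the bins are a description. There were 16 NC and 27 WD cells with 0 UMIs, 45 and 60 with 1 or 2, and 32 and 33 with 3 or 4. Depth rose along these bins, with medians of 14845, 16167 and 20304 UMIs on NC and 16660, 18738 and 23364 on WD. Histones were at 937, 752 and 1463 CPM in these bins on NC and at 542, 754 and 1120 CPM on WD, each bin above the one before it on WD only. The last NC bin rested on the cell with 367 histone UMIs. Without it that bin was at 958 CPM (886 to 1035), within the interval of the first bin (823 to 1061), and without its highest cell the last WD bin was at 1043 CPM. *Rrm2* was at 22.8, 18.1 and 39.2 CPM on NC and at 4.17, 16.8 and 50.4 CPM on WD, and *Tyms* was at 64.7, 60.9 and 87.1 CPM and at 29.2, 72.1 and 94.1 CPM, so that on NC the middle bin was lowest for both. *Ccnd2*, the D-type cyclin that starts the passage through G1, ran the other way. It was at 228, 122 and 79.8 CPM on NC and at 254, 203 and 166 CPM on WD, lower in each later bin of both libraries. No interval is given for *Ccnd2* in these bins. In bins of the replication sum (8 to 11, 12 to 19, and 20 or more) it had no order that both libraries shared. There *Ccnd2* was at 110, 144 and 79.1 CPM on NC and at 260, 172 and 183 CPM on WD. *Mcm3* and *Mcm5* had no order that both libraries shared. *Mcm3* was at 228, 183 and 212 CPM on NC and at 167, 217 and 227 CPM on WD, so its lowest bin differed between them.

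Promoter letters were counted because E2F factors are known regulators of these genes. RefSeq windows from 250 bases before to 50 bases after each gene start (GRCm38.p6) were searched on both strands for the E2F words TTTCCCGC, TTTCGCGC, TTTGCCGC and TTTGGCGC, and for TTTGAA, the letters of the cell cycle homology region (CHR) found in mitosis gene promoters. An E2F word was in 5 of 11 windows of the helicase loading genes (45.5%) and in 14 of 61 windows of the 4 replication lists (23%), so that most of these windows held none, and in 1 of 20 windows of the nucleotide list (5%), against 2.26% of all 32851 windows. TTTGAA was in 18 of 23 windows of the G2 and mitosis genes (78.3%), in 5 of 9 of the helicase activation genes (55.6%), in 1 of 11 of the helicase loading genes (9.09%), in 9 of 61 over the 4 replication lists (14.8%) and in 17.9% of all windows. Of the 65 replication genes 52 had a window, and of the 26 G2 and mitosis genes 22. Among the 5 genes that define the gate, the windows of *Mcm3* and *Mcm5* held E2F words and those of *Pcna*, *Tyms* and *Rrm2* held none of these letters. A match is a description of letters and not a measured binding site. The windows shown are those of the *Mcm* genes of the rule, of *Cdca7* and *Ung*, which were above their double-gate levels, and of *Cdk1*, which was low in S-gate cells. Capitals mark the E2F words and TTTGAA, and the window of *Ung* held neither. In *Mcm5* the words TTTCGCGC and TTTGGCGC, the second on the other strand, overlap.
*Mcm3*, chr1:20820263-20820562, minus strand: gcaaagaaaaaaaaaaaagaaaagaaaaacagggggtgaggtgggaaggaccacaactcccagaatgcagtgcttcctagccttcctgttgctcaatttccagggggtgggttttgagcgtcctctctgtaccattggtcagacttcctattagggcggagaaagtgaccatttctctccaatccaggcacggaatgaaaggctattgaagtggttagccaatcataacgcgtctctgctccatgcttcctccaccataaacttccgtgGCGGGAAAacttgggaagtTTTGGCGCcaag
*Mcm5*, chr8:75109259-75109558, plus strand: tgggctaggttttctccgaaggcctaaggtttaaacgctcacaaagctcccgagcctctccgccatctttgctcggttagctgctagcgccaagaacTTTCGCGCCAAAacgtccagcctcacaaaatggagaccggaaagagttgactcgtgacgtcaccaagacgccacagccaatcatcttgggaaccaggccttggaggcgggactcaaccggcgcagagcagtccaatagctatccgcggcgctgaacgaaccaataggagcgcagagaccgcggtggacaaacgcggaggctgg
*Cdca7*, chr2:72475969-72476268, plus strand: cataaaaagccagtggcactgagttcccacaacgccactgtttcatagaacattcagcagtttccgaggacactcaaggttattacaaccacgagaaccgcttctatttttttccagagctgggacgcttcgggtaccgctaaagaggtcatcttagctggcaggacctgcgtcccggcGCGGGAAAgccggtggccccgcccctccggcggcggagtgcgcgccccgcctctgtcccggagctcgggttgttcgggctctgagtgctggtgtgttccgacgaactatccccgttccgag
*Ung*, chr5:114130185-114130484, plus strand: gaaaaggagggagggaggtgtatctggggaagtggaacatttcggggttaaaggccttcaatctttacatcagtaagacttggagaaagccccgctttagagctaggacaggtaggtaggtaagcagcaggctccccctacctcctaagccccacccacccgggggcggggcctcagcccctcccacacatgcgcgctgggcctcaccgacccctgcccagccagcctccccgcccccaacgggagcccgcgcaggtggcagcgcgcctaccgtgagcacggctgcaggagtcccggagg
*Cdk1*, chr10:69352863-69353162, minus strand: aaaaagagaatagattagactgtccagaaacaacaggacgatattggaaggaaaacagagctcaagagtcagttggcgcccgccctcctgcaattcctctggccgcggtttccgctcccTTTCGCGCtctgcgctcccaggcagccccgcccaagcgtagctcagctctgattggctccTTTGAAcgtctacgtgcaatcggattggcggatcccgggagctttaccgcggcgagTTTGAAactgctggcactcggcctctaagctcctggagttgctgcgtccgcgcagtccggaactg
The first base of the E2F words lay 19 and 38 bases after the start site in *Mcm3* and 153 and 149 bases before it in *Mcm5*. In *Cdk1* one E2F word stood 131 bases, and the TTTGAA words 71 and 15 bases, before the start site, so that gene held both kinds.

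Of 6 listed genes that restrain the cell cycle, 4 could be compared with low-gate cells, and all 4 were lower in both libraries. For 3 of them the difference was at least 1 log2 unit in both, against 2.39% of all genes. *Klf2*, a quiescence factor from the memory and naive list, was at 265 CPM on NC and 337 on WD in S-gate cells. It was at 880 and 941 CPM in low-gate cells. *Btg1*, which restrains proliferation, was at 870 and 951 CPM against 1875 and 1982. *Cdkn1b*, for the CDK inhibitor p27, was at 38.1 and 42.0 CPM against 89.2 and 102. Each was less than 0.5 times its low-gate level in both libraries. Growth genes were higher. *Ncl*, for the nucleolar protein nucleolin, was at 943 and 1051 CPM against 595 and 677, and *Ran*, for the nuclear transport GTPase, at 707 and 688 CPM against 302 and 283. Of the 16 growth genes measured 14 were above their low-gate level in both libraries, against 57.4% of all genes, *Myc* itself not among them at 34.8 and 54.0 CPM against 66.6 and 56.9. Of the 10 memory and naive T cell genes 7 could be compared, and all 7 were lower by at least 1 log2 unit in both libraries, against 2.39% of all genes. *Tcf7*, a factor of memory and naive T cells, was at 20.1 and 21.8 CPM against 108 and 100.2.

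Outside the lists, the 12 genes furthest above low-gate cells were *Pclaf*, *Stmn1*, *Cks1b*, *Siva1*, *Smc2*, *Rnaseh2b*, *Cisd1*, *Cbx5*, *Fabp5*, *Spp1*, *Eno3* and *Timm8a1*. *Stmn1*, for a microtubule regulator, was at 350 CPM on NC and 366 on WD against 40.4 and 49.0 CPM in low-gate cells, and reached 1234 and 1174 CPM in double-gate cells. *Fabp5*, a fatty acid carrier, was at 144 and 139 CPM against 27.0 and 49.5. *Pclaf*, the Pcna-associated factor, was at 57.7 and 107 CPM and far below its double-gate levels of 722 and 658 CPM. The 12 furthest below were *Ssh2*, *Socs3*, *Satb1*, *Ripor2*, *Klhl24*, *Rgs10*, *Lncpint*, *Foxp1*, *Tob1*, *Emb*, *Gpr183* and *Arl4c*, among which *Foxp1* and *Tob1* are known to keep T cells at rest. *Foxp1* was at 48.4 and 59.3 CPM against 139 and 171 CPM. Compared with double-gate cells, 0.0366% of all genes were at least 1 log2 unit higher in both libraries, which was 1 gene, *Xcl1*, the chemokine that draws cross-presenting dendritic cells. *Xcl1* was at 922 and 1294 CPM in S-gate cells, 459.5 and 413 CPM in double-gate cells, and 514 and 441 CPM in low-gate cells, and 1 cell per library gave 16.5% and 19.9% of its UMIs. Without those cells *Xcl1* was at 784 and 1045 CPM, and on NC the log2 ratio over double-gate cells was 0.77, under the limit of 1. After thinning it was seen in 23.9% (15.6 to 33.9) of NC and 37.8% (29.1 to 47.2) of WD S-gate cells. The double-gate shares were 27.5% (21.5 to 34.1) and 29.7% (24.9 to 34.7), so the intervals of these gates overlapped in both libraries.

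Most S-gate cells carried effector RNA. After thinning to 5000 UMIs, *Gzmb*, for granzyme B, was seen in 76.1% (66.1 to 84.4) of NC and 68.9% (59.8 to 77.1) of WD S-gate cells, and *Prf1*, for perforin, in 65.2% (54.6 to 74.9) and 48.7% (39.5 to 58.1). Unthinned, the shares were 88.2% and 80% for *Gzmb* and 87.1% and 65% for *Prf1*. As a background, low-gate cells with at least 3 UMIs over *Lef1* and *Ccr7*, which mark resting T cells, gave 15.8% and 10.5% for *Gzmb* and 15.4% and 13.0% for *Prf1* after thinning, at median depths of 7747 and 8652.5 UMIs before it. Double-gate cells gave thinned shares of 76.5% and 69.2% for *Gzmb* and 59.8% and 38.1% for *Prf1*. All low-gate cells gave 43.0% and 35.8% for *Gzmb* and 35.8% and 24.3% for *Prf1*. Effector RNA was thus not particular to the S gate. *Il7r*, the interleukin 7 receptor of resting and memory cells, was seen in 20.7% (12.9 to 30.4) and 17.6% (11.3 to 25.7) of S-gate cells and in 4.41% (2.04 to 8.21) and 6.50% (4.16 to 9.59) of double-gate cells, and *Tcf7* in 9.78% and 10.1% against 2.94% and 4.24%. The other memory and naive genes were closer, with *Ccr7* in 9.78% and 9.24% of S-gate against 8.82% and 8.19% of double-gate cells, and *Lef1* in 8.70% and 5.88% against 3.43% and 6.21%. The intervals of S-gate and double-gate cells were apart in both libraries for *Il7r* alone of these 4 genes. Counted together after thinning, 55 of 92 NC and 69 of 119 WD S-gate cells had *Gzmb* or *Prf1* but none of *Tcf7*, *Lef1*, *Ccr7* and *Il7r*. A further 19 and 25 cells had both kinds, 14 and 14 only the memory and naive genes, and 4 and 11 neither. No background share from another gate is given for these classes. A thinned cell can also miss RNA that it holds. *Tcf7* was seen in only 67.0% and 54.8% of the resting cells chosen on *Lef1* and *Ccr7*, and *Il7r* in 62.1% and 65.9%. The classes therefore count RNA seen and are not cell states.

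Replication genes were compared between the diets. A filter asked for 20 UMIs per library and 50 CPM in one of them. The 27 genes of the 4 replication lists that passed had a median of -0.05 for log2 WD over NC, and none reached 0.5 in either direction, close to the shares of all genes that did (3.46% higher and 2.32% lower). The median over all 2543 genes in that filter was 0.00. *Mcm3* was at 200.2 CPM on NC and 210.1 on WD (log2 ratio 0.07, -0.13 to 0.27), *Mcm5* at 112 and 119 CPM (0.10, -0.16 to 0.36), and *Rrm2* at 26.7 and 24.7 CPM (-0.11, -0.68 to 0.47). *Pcna* was at 284 and 327 CPM (0.20, 0.04 to 0.36). Its log2 ratio was -0.10 after thinning to 5000 UMIs with the lowered gate limits, which also changed the cells. *Lig1* was at 136 and 170 CPM (0.32, 0.09 to 0.55). The rule bears on *Mcm3*, *Mcm5*, *Pcna*, *Tyms* and *Rrm2*, since each cell was chosen on their sum. The histone sum was lower on WD at a log2 ratio of -0.34 (-0.43 to -0.25), and without the highest cell of each library at -0.10 (-0.19 to 0.00).

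Of 5 G1/S control genes in the filter, 3 had an interval above 0 and none below it, against 14.1% and 11.8% of all genes. *Ccnd2* was at 121 CPM on NC and 201 CPM on WD (log2 ratio 0.73, 0.50 to 0.97). *Ccnd3*, another D-type cyclin, was at 53.3 and 72.9 CPM (0.45, 0.09 to 0.82) and *Cdk6*, their kinase partner, at 112 and 143 CPM (0.35, 0.10 to 0.61). *Cdk4*, the other partner, was at 162 and 149 CPM (-0.12, -0.35 to 0.10). *Ccnd2* was seen in 38.0% (28.1 to 48.8) of NC and 63.0% (53.7 to 71.7) of WD S-gate cells after thinning, and in 74.2% and 85% before it. The thinned share was also higher on WD in double-gate cells, at 24.5% (18.8 to 31.0) and 36.2% (31.1 to 41.4), and in low-gate cells, at 50.2% (47.4 to 52.9) and 57.7% (54.9 to 60.5). The summed level of *Ccnd2* was at 94.1 and 96.1 CPM in double-gate cells (0.03, -0.13 to 0.19) and at 172 and 206 CPM in low-gate cells (0.26, 0.18 to 0.34). The CDK inhibitor gene *Cdkn1a* was below the filter, at 33.2 and 49.8 CPM.

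Across all 2543 genes, 3.46% had a log2 ratio of 0.5 or more on WD and 2.32% had one of -0.5 or less. The 12 highest were *Tmem80*, *Cd81*, *Ccl1*, *Enpp2*, *Cxcr3*, *Itpkb*, *Spp1*, *Gadd45b*, *Fos*, *Zfp36*, *Junb* and *Ighm*. *Cxcr3*, a receptor that guides T cells into inflamed tissue, was at 23.9 CPM on NC and 57.3 on WD (log2 ratio 1.26, 0.76 to 1.78), in 28 and 60 cells. After thinning it was seen in 14.1% (7.74 to 23.0) of NC and 24.4% (17.0 to 33.1) of WD S-gate cells, with overlapping intervals. The thinned share of *Cxcr3* was also higher on WD in double-gate cells (7.84% and 24.6%) and in low-gate cells (29.7% and 38.3%). *Itpkb*, an inositol phosphate kinase of T cell receptor signaling, was at 32.6 and 75.8 CPM (1.22, 0.79 to 1.66). Some of the others rested on single cells. For *Tmem80* 1 WD cell gave 64.5% of the UMIs, and without the highest cell of each library the log2 ratio went from 2.32 to 0.93. For the chemokine *Ccl1* 1 cell gave 43.9% on NC and 40.2% on WD, for *Spp1*, the secreted protein osteopontin, 24.0% and 33.7%, and both remained higher on WD without those cells, at 1.60 and 1.01. After thinning *Spp1* was seen in 14.1% of NC and 10.9% of WD S-gate cells, and *Ccl1* in 8.70% and 12.6%.

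The 12 lowest were *AA467197*, *Klre1*, *Tmem163*, *Eno1*, *Prf1*, *Ly6a*, *Klrc1*, *Hist1h2ae*, *Mt3*, *Rpl35*, *Klrd1* and *Sap18*. *Klre1*, *Klrc1* and *Klrd1* belong to the killer cell lectin receptor family, which activated CD8 T cells share with NK cells. *Klrd1*, for CD94, was at 724 CPM on NC and 391 on WD (-0.89, -1.01 to -0.77). *Klrc1*, for its partner NKG2A, was at 265 and 134 CPM (-0.98, -1.19 to -0.78), and *Klre1* at 84.9 and 23.9 CPM (-1.83, -2.29 to -1.39). These genes were also lower on WD in double-gate cells, at -0.77, -0.78 and -1.59. The 5 NK and gamma-delta T cell genes summed to 69.1 CPM on NC and 32.5 on WD in S-gate cells (-1.09, -1.51 to -0.67), and without the highest cell of each library the log2 ratio was -0.95 (-1.57 to -0.34). They were seen in 16 of 93 NC and 12 of 120 WD cells, with *Tyrobp* the most abundant on NC, *Fcer1g* on WD and *Ncr1* at 0 in both. In double-gate cells their sum was higher on WD (1.09, 0.67 to 1.53). Without the cells with 5 or more UMIs of *Siglech*, *Tyrobp*, *Foxp3* and *Cd4*, the log2 ratios in S-gate cells were -0.92 for *Klrd1*, -0.97 for *Klrc1* and -1.81 for *Klre1*. *Ly6a*, for the interferon-responsive surface protein Sca-1, was at 596 and 278 CPM (-1.10, -1.24 to -0.96). Some of these carry a limit. For *Hist1h2ae* 1 NC cell gave 45.6% of the UMIs, and without the highest cell of each library the log2 ratio was -0.22. *Eno1* shares sequence with *Eno1b*, which was higher on WD at 94.7 and 131 CPM, so that the split between these copies is uncertain.

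**Figure D4:**
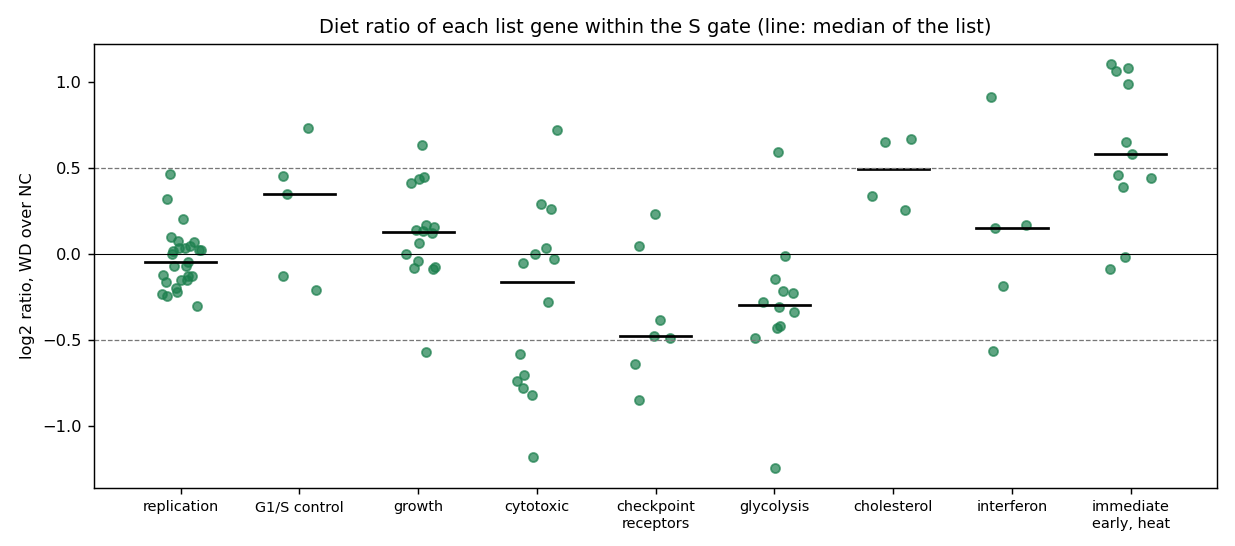
Log2 ratio of WD over NC in S-gate cells (y axis) for each gene in the filter, 1 point per gene, by list, with the black line at the list's median and dashed lines at 0.5 and -0.5. The 27 replication genes lie between the dashed lines around a median of -0.05, while checkpoint receptors lie around -0.47 and immediate early and heat genes around 0.58.

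Effector and checkpoint genes were split. Of 14 cytotoxic genes in the filter 6 were lower on WD by at least 0.5 and 1 was higher, against 2.32% and 3.46% of all genes. The median was -0.16, and -0.55 with a gate of 12 replication UMIs. *Gzmb* was at 1142 CPM on NC and 647 on WD (-0.82, -0.91 to -0.72) and *Prf1* at 471 and 208 CPM (-1.18, -1.34 to -1.02). The chemokine genes *Ccl3* and *Ccl4* were at 1531 and 1021 CPM (-0.58, -0.66 to -0.51) and at 2028 and 1214 CPM (-0.74, -0.81 to -0.67). *Ccl5*, a related chemokine, was at 4158 and 4267 CPM (0.04, -0.01 to 0.08), and *Gzmk*, for granzyme K, was the one higher, at 43.5 and 71.7 CPM (0.72, 0.33 to 1.12). The rule shapes these values, since cells high in *Gzmc* to *Gzmn* were set aside. When those cells were kept, the log2 ratio of *Gzmb* was -1.42 and that of *Prf1* -1.58. Checkpoint receptor genes, which restrain T cells after activation, had an interval below 0 in 5 of 7, against 11.8% of all genes. *Lag3* was at 346 and 192 CPM (-0.85, -1.02 to -0.67), *Pdcd1*, for PD-1, at 244 and 176 CPM (-0.47, -0.67 to -0.28), and *Havcr2*, for Tim-3, at 109 and 77.5 CPM (-0.49, -0.79 to -0.20). *Ctla4* was at 113 and 117 CPM (0.05, -0.22 to 0.31) and *Tox*, a factor of T cell exhaustion, at 129.5 and 152 CPM (0.23, -0.01 to 0.47).

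The summed levels of the cytokine genes *Ifng* and *Xcl1* were higher on WD in S-gate cells and lower in double-gate and low-gate cells, whereas in mitosis-gate cells their log2 ratios were 0.16 (-0.04 to 0.37) and 0.60 (0.41 to 0.80). *Ifng*, for interferon gamma, was at 664 CPM on NC and 812 on WD (0.29, 0.19 to 0.39) in S-gate cells, and at 696 and 524 CPM (-0.41, -0.47 to -0.35) in double-gate cells. It was seen in 86 of 93 and 112 of 120 S-gate cells, and after thinning in 73.9% and 75.6% of them. The thinned shares were 52.8% of NC and 57.2% of WD low-gate cells, where its summed level was lower on WD. The resting cells chosen on *Lef1* and *Ccr7* gave 26.7% and 25.1%. One WD cell held 405 of 1972 *Ifng* UMIs and 1 NC cell 170 of 1221, and without these cells the log2 ratio was 0.16 (0.05 to 0.27). With a gate of 12 replication UMIs it was -0.22. *Xcl1* had a log2 ratio of 0.49 (0.40 to 0.58) in S-gate cells and of -0.15 (-0.23 to -0.08) in double-gate cells, and was 0.41 without the highest cell of each library. *Xcl1* was seen in 35 of 93 NC and 67 of 120 WD S-gate cells. After thinning its share was 23.9% (15.6 to 33.9) on NC and 37.8% (29.1 to 47.2) on WD in S-gate cells. In double-gate cells it was 27.5% (21.5 to 34.1) and 29.7% (24.9 to 34.7). In low-gate cells it was 27.7% (25.2 to 30.2) and 32.0% (29.4 to 34.6). The intervals of the diets overlapped in each of these gates, the S gate included. The resting cells chosen on *Lef1* and *Ccr7* went the other way, with 27.4% and 21.4%.

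**Figure D5:**
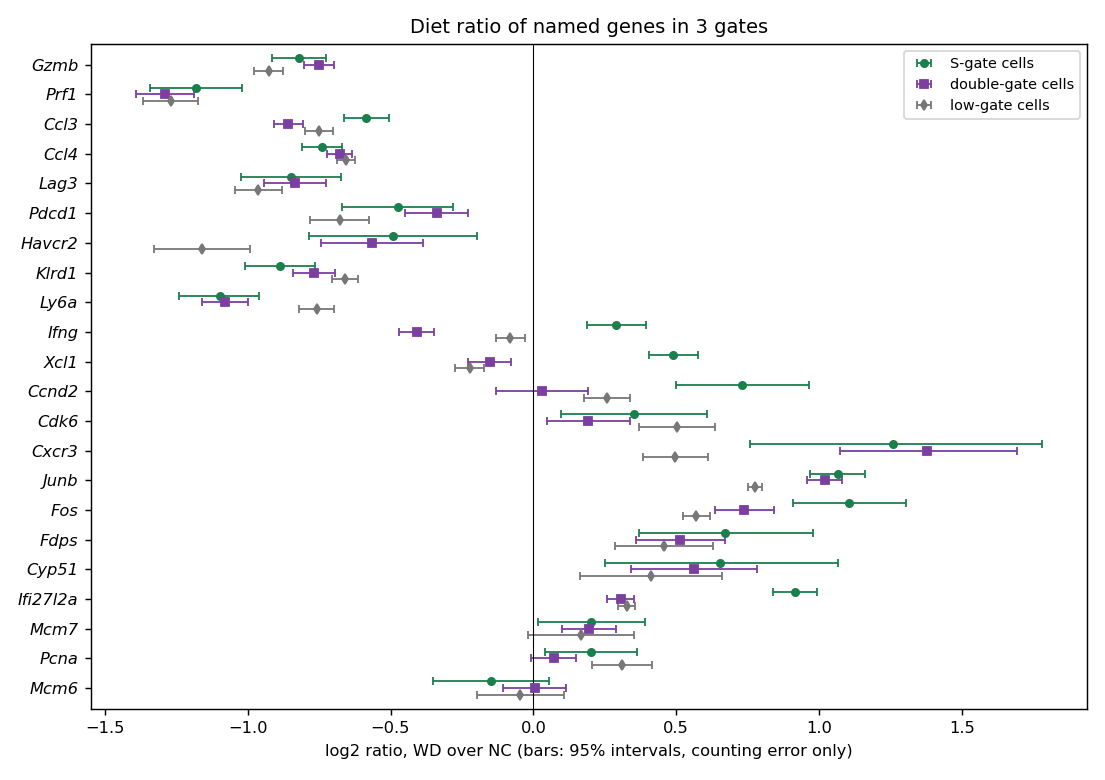
Log2 ratio of WD over NC (x axis) of 22 named genes (y axis) in S-gate, double-gate and low-gate cells, with bars for 95% intervals that cover counting error only. *Gzmb*, *Prf1* and *Lag3* lie left of 0 in all the gates drawn, whereas *Ifng* and *Xcl1* lie right of 0 in S-gate cells and left of it in double-gate and low-gate cells.

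Metabolic genes differed between the diets by pathway. Of 12 glycolysis genes in the filter 11 had a ratio below 0, 9 of them with an interval below 0 against 11.8% of all genes, and the median was -0.29. *Ldha*, for lactate dehydrogenase, was at 1055 CPM on NC and 852 on WD (-0.31, -0.40 to -0.22), and *Tpi1*, for triosephosphate isomerase, at 408 and 291 CPM (-0.49, -0.64 to -0.34). *Hk2*, for the hexokinase of the first step, was the exception at 53.9 and 81.2 CPM (0.59, 0.24 to 0.95). The 4 cholesterol synthesis genes in the filter, of 16 listed, all had a ratio above 0, as did 49.9% of all genes. *Fdps*, for farnesyl diphosphate synthase, was at 73.5 and 117 CPM (0.67, 0.37 to 0.98), and *Cyp51*, the lanosterol demethylase, at 41.9 and 65.9 CPM (0.65, 0.25 to 1.07). Summed over all 16 genes the log2 ratio was 0.54 (0.41 to 0.66). Neither direction was particular to the S gate. The cholesterol sum had log2 ratios of 0.39 in double-gate, 0.31 in low-gate and 0.62 in mitosis-gate cells. The glycolysis sum had -0.28 in S-gate, -0.28 in double-gate, -0.32 in low-gate and -0.48 in mitosis-gate cells.

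Immediate early genes, which respond within minutes to receptor signals, had the highest median of the lists plotted. Of 11 such and heat shock genes in the filter 6 were higher by at least 0.5 and none lower, against 3.46% and 2.32% of all genes, with a median of 0.58. *Junb* was at 647 CPM on NC and 1355 on WD (1.07, 0.97 to 1.16), *Fos* at 155 and 332 CPM (1.11, 0.91 to 1.31), and *Jun* at 304 and 287 CPM (-0.09, -0.25 to 0.08). *Junb* and *Fos* were higher on WD in double-gate and low-gate cells as well. The 13 genes of the mitochondrial genome summed to 18747 CPM on NC and 24781 CPM on WD, and were also higher on WD in low-gate cells, at 22997 and 28149 CPM. The 5 interferon genes in the filter showed no shared direction. Of these genes 3 had a ratio above 0 and 2 below it, 1 was higher and 1 lower by at least 0.5, and the median of 0.15 went to -0.35 with a gate of 12 replication UMIs and to -0.09 without the limit on the granzyme genes. The one higher was *Ifi27l2a*, an interferon-induced gene, at 1042 and 1965 CPM (0.91, 0.84 to 0.99).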

How the data were processed

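Single-cell RNA was measured in CD8+ TIL of 1 NC and 1 WD library. The authors deposited raw counts of UMIs per gene and cell, made with Cell Ranger 6.0.2, and the submitters' processing notes name mm10. Of 2697 NC and 2623 WD cells deposited, cells were kept if mitochondrial genes gave under 7.5% of UMIs and the total lay between 500 and 50000, and the gate was applied to raw UMIs. Of the cells left out, 0 NC and 2 WD cells met the gene limits. S-gate cells held 1837729 (NC) and 2427365 (WD) UMIs in all, which set the counting error. UMIs were summed per gate and library and divided by the total, as CPM, with exact Poisson intervals. Shares carry Clopper-Pearson and ratios exact conditional binomial intervals (scipy 1.17.1, numpy 2.4.6, pandas 2.3.3). The ratio step was tested on simulated data. Scaling alternatives used TMM factors from edgeR 4.0.16 in R 4.3.3 and median-of-ratios size factors. The genes named are those of the rule, those of fixed lists, and the 12 highest and 12 lowest ratios of WD over NC in S-gate cells and of S-gate over low-gate cells, within the CPM and UMI filter given in the report, predicted genes and pseudogenes left out. *Xcl1* and *Eno1b* were chosen after their values were seen. The members and lists were chosen with earlier results of these data known. Gene positions are from GENCODE vM21 (GRCm38) and promoter windows from RefSeq. Leaving out single cells, cells with other markers, or shallow low-gate cells, also within the mitosis-sum bins and for *Xcl1* against double-gate cells, was added after seeing the data. Resting cells for the background shares were chosen on *Lef1* and *Ccr7* after the data were seen. Some genes of the lists are counted in them but not reported here by name.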

Additional observations from a re-analysis of the deposited data

Results flagged for a closer look

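The diet ratio of 10 named genes pointed one way in S-gate cells and the other way in double-gate or low-gate cells of the same libraries, with both counting intervals clear of 0. The difference between the gates was not tested. *Ifng* had a log2 ratio of WD over NC of 0.29 in S-gate cells, -0.41 in double-gate cells and -0.08 in low-gate cells, and *Xcl1* had 0.49, -0.15 and -0.22. In mitosis-gate cells they had 0.16 and 0.60. Against double-gate cells, *Cd81*, a tetraspanin, had 2.17 and -0.56, *Tmem80* 2.32 and -0.37, *Pclaf* 0.89 and -0.13, *Cdca7* -0.35 and 0.40, and *Cd74* 0.60 and -0.61. Against low-gate cells, *Myc* had 0.63 and -0.23, *Npm1*, for nucleophosmin, 0.14 and -0.10, and *Tnfrsf4*, for the costimulatory receptor OX40, -0.30 and 0.25. Without the highest cell of each library, the ratio in S-gate cells was 0.93 for *Tmem80*, 0.40 (-0.01 to 0.81) for *Cd74*, -0.33 (-0.68 to 0.03) for *Cdca7* and 2.33 for *Cd81*. *Cd81* was seen in 7 of 93 NC and 27 of 120 WD S-gate cells.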

How the results depend on the processing

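No paired analysis was possible because each diet has 1 library. Limits: mice cannot be told apart from libraries, the gate favors deep cells, and doublets were not removed. The share of S-gate cells had a log2 ratio of WD over NC of 0.47, and of 0.046 without the limit on *Gzmc* to *Gzmn*. Of 88 genes higher and 59 lower on WD by 0.5, the counts were 163 higher with a mitosis limit under 3 UMIs, 98 lower with a replication limit of 12 UMIs, 161 and 169 after thinning to 5000 UMIs, 164 and 101 with mitochondrial and ribosomal protein genes taken out of the total (3496 genes in the filter against 2543), 375 and 363 with at least 10 CPM (6339 genes) and 2010 and 1574 with no CPM limit and 1 UMI (11586 genes). Throughout this section thinning also lowered the gate limits as above, so depth and cells changed together. The thinned gate held 46 of 92 NC and 61 of 119 WD S-gate cells deep enough. With a replication limit of 12 UMIs the cytotoxic median was -0.55 and the interferon median -0.35, against -0.16 and 0.15. The histone sum of S-gate over low-gate cells, as the smaller log2 ratio of both libraries, was 0.33. It was 0.42 with a limit of 12 UMIs, 0.14 and 0.60 with mitosis limits of 3 and 10 UMIs, 0.19 over all deposited cells, 0.42 under a stricter cell filter, 0.51 after thinning, 0.11 as a mean over cells and 0.45 against low-gate cells of at least 10000 UMIs, a choice added after seeing the data. The causes were not tested. Of 570 values for 38 named genes, 509 lay inside the counting interval of the value given above, 59 lay outside it and 2 changed sign, *Ifng* to -0.22 with a limit of 12 UMIs and *Pcna* to -0.10 after thinning. Under the scalings tried, the median of all genes moved by less than 0.1.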
